A study of Mus musculus with 6 samples.

Results

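The genes described here are the main cytokines and chemokines of the early inflammatory response of macrophages: the interleukin-1 genes Il1a, Il1b and Il1rn, Il6, Tnf, and the CXC chemokine genes Cxcl1, Cxcl2, Cxcl3 and Cxcl10. They were chosen by name, whatever their counts, and all 9 were found among the 24054 genes of the deposited tables. The RNA came from bone marrow-derived macrophages (BMDM) of wild-type C57BL/6 mice. These are macrophages grown from marrow precursors, here for 7 days in medium conditioned by L929 cells, a mouse fibroblast line that secretes the macrophage growth factor M-CSF. In the oxLDL group the cells then received oxidised low-density lipoprotein, a modified lipoprotein taken up through scavenger receptors, at 50 µg/ml for 24 h, and the untreated group received none. Each group held 3 samples numbered WT1, WT2 and WT3 in the titles, so that each number gives 1 untreated and 1 oxLDL library. The titles all contain "mix", whose meaning is not explained. Nor do the labels say whether the numbers stand for separate mice or cultures. The p-values below therefore cover only the spread among these 6 samples, which may be technical.

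IL-1α and IL-1β signal through the same receptor, and the protein of Il1rn occupies that receptor without signalling. IL-6 acts through its own receptor chain and the shared chain gp130, and TNF acts through the receptors TNFR1 and TNFR2. CXCL1, CXCL2 and CXCL3 attract neutrophils through CXCR2, whereas CXCL10 is induced by interferons and attracts activated T cells through CXCR3. Macrophages that meet microbial products transcribe these genes through NF-κB and interferon regulatory factors, and many of the messages are short-lived because proteins that bind AU-rich stretches of the 3′ UTR speed their decay.

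Il6, Cxcl1, Cxcl2, Cxcl3 and Cxcl10 lie on mouse chromosome 5, Il1a, Il1b and Il1rn on chromosome 2 and Tnf on chromosome 17. Sequence around the transcription start is shown for the 5 genes of chromosome 5, since in number 3 the first 4 were higher with oxLDL and Cxcl10 was lower. All 9 genes were found in the RefSeq promoter table (GRCm38.p6), which holds 250 bases before to 50 bases after each start. Capitals mark letters that match 1 of 2 common spellings of an NF-κB site on either strand. The first reads GGG, 2 bases of any kind, TT, 1 base of any kind and CC, the second reads GGG, 3 bases of any kind and TTCC, and a site can match both.
Cxcl1: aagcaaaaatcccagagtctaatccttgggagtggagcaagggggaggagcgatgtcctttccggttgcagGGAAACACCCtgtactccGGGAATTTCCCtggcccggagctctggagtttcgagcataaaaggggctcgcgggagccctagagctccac
Cxcl2: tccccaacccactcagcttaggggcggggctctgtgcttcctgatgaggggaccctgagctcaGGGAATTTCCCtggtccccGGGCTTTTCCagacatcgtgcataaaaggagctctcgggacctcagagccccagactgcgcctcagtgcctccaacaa
Cxcl3: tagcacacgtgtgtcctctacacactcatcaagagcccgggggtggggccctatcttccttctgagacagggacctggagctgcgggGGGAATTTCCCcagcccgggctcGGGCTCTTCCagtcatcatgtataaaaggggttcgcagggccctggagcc
Il6: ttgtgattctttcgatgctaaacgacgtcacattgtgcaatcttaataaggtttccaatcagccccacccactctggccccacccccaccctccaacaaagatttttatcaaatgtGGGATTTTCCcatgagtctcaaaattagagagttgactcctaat
Cxcl10: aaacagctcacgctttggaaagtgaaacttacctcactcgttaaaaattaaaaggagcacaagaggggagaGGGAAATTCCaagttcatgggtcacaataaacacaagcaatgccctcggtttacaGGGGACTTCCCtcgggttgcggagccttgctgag

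The first 4 stretches are the 160 bases directly before the start, at chr5:90891085-90891244 for Cxcl1, chr5:90903739-90903898 for Cxcl2, chr5:90785941-90786100 for Cxcl3 and chr5:30012954-30013113 for Il6, all on the plus strand. The Cxcl10 stretch, at chr5:92348960-92349119 on the minus strand, runs from base 230 to base 71 before the start. In these windows, 6 of the 9 genes held a match to either NF-κB spelling (Il1rn, Il6, Cxcl1, Cxcl2, Cxcl3 and Cxcl10), beside 9.38% of 27025 genes in the table. The longest run of letters shared by the 250 bases before the starts of Cxcl1, Cxcl2 and Cxcl3, a search added after the data had been seen, was GGGAATTTCCC, which was found in 14 genes, or 0.0518%. Each match is a description of letters only.

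The 6 libraries held between 13546572 and 15559310 expected counts, with 1 read worth 0.0664 to 0.0728 CPM. Levels below are the authors' CPM values (counts scaled to a common library size), with library sizes adjusted by the trimmed mean of M-values (TMM), given in the order of the numbers 1, 2 and 3, and levels are compared between samples of 1 gene, not between genes. The number 3 libraries stood apart. Over all genes tested, Pearson's r of log2 CPM within a group was 0.983 to 0.984 between numbers 1 and 2 and 0.889 to 0.922 between number 3 and either of them, across genes, which are not independent replicates. All 8 macrophage markers were detected. Their summed CPM was 35283, 26431.5 and 12342.5 in untreated samples, lowest in number 3, and 15810, 8789 and 10376 in oxLDL samples. Most of it came from Lyz2 and Emr1. The markers did not move as 1 group. Fcgr1 fell from 371, 511 and 573 CPM to 41.4, 15.2 and 42.1 CPM (log2 fold change −3.98 ± 0.44, edgeR quasi-likelihood adjusted p = 0.0287), while Cd68 was at 746, 1094 and 1183 CPM untreated and 1609, 1634 and 1337 CPM with oxLDL, with no overlap (0.62 ± 0.25, adjusted p = 0.187). In bulk RNA, fewer cells of a type and less RNA per cell cannot be told apart.

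Il1b, which encodes the secreted agonist IL-1β, was lower with oxLDL in each number. Il1b CPM was 3.30, 2.87 and 26.6 without treatment and 1.61, 1.33 and 20.2 with oxLDL. Both number 3 libraries were above the other 4, so the groups overlapped, while each oxLDL sample lay below the untreated sample of its number. Within numbers 1, 2 and 3, Il1b was 2.05-fold (95% interval 1.23 to 3.50), 2.17-fold (1.24 to 3.91) and 1.32-fold (1.13 to 1.54) lower. These exact intervals, like all intervals on ratios within a number here, cover counting error only. The log2 fold change over the 3 numbers was −0.78 ± 0.21 (SE, n = 3 per group), and it did not pass edgeR's quasi-likelihood test with the number as a block (Benjamini-Hochberg adjusted p = 0.0964 over 11400 genes).

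Il1a, which encodes the agonist IL-1α, had nearly all of its reads in the number 3 libraries. Il1a expected counts were 3, 1 and 240.87 without treatment and 4, 7.41 and 641.68 with oxLDL, or 0.207, 0.0719 and 16.3 CPM and 0.268, 0.465 and 46.8 CPM. In number 3 the oxLDL level was 2.87-fold the untreated level (2.47 to 3.34), and the other 4 libraries held too few reads to place a fold with any precision. Il1a did not reach the count filter. Fitted with no filter, its log2 fold change was 1.48 ± 0.31 and missed the threshold in edgeR (adjusted p = 0.0559), but it passed in DESeq2 (1.46, adjusted p = 0.0254) and in limma-voom (1.49, adjusted p = 0.0307), each with the number as a block. Il1a did not pass in limma on log2 CPM with 1 or 0.1 added (adjusted p = 0.304 and 0.189). Without number 3, edgeR with the block gave 1.34 ± 1.08 (adjusted p = 0.472).

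Il1rn, the receptor antagonist gene, was higher with oxLDL in numbers 1 and 2 and lower in number 3. Il1rn CPM was 14.8, 45.1 and 873 without treatment and 32.3, 52.2 and 305 with oxLDL. The oxLDL level was 2.18-fold (1.85 to 2.57) the untreated level in number 1 and 1.16-fold (1.04 to 1.29) in number 2, and 2.86-fold (2.76 to 2.96) lower in number 3. The log2 fold change was −0.07 ± 0.56 in edgeR's quasi-likelihood test with the block (adjusted p = 0.947), and without number 3 it was 0.65.

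The balance of antagonist and agonist message was read as Il1rn counts per Il1b count within each library, a quantity in which gene length cancels between samples. It was 4.48, 15.7 and 32.9 in untreated and 20.04, 39.4 and 15.1 in oxLDL samples. It was higher with oxLDL in numbers 1 and 2 and lower in number 3, with log2 changes of 2.16, 1.33 and −1.12. The mean change was 0.79 ± 1.70 (SD, n = 3), with p = 0.5 in a two-sided exact permutation test of labels within numbers, whose smallest possible p is 0.25.

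Il6, which encodes the cytokine that drives the hepatic acute phase response, was likewise carried by number 3. Il6 counts were 8, 3 and 239 without treatment and 1, 4 and 825 with oxLDL, or 0.551, 0.216 and 16.1 CPM and 0.0671, 0.266 and 60.1 CPM. The number 3 oxLDL level was 3.72-fold the untreated level (3.22 to 4.32). In number 1 the counts of 8 and 1 gave a ratio of 8.21-fold lower with an interval of 1.10 to 364, so numbers 1 and 3 pointed in opposite directions. Il6 did not reach the filter, and with no filter edgeR gave a log2 fold change of 1.14 ± 0.78 (adjusted p = 0.510).

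Tnf was lower with oxLDL in all 3 numbers. Tnf CPM was 43.3, 24.4 and 101 without treatment and 10.3, 9.16 and 64.5 with oxLDL. The number 3 oxLDL sample exceeded 2 of the 3 untreated samples, so the groups overlapped. Within numbers 1, 2 and 3, Tnf was 4.19-fold (3.51 to 5.03), 2.67-fold (2.18 to 3.27) and 1.56-fold (1.44 to 1.70) lower. The log2 fold change was −1.36 ± 0.29 and missed the threshold in edgeR's quasi-likelihood test with the block (adjusted p = 0.0675). It passed in DESeq2 with the block (−1.38 ± 0.32, adjusted p = 0.000333) and in edgeR without number 3 (−1.74 ± 0.19, adjusted p = 0.00369).

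The neutrophil chemokine genes Cxcl1, Cxcl2 and Cxcl3 were higher with oxLDL in number 3, while in numbers 1 and 2 the libraries held at most 5 counts of Cxcl1 and Cxcl3 and 36 to 54 counts of Cxcl2. Cxcl2 CPM was 3.24, 3.16 and 54.1 without treatment and 3.62, 2.39 and 177 with oxLDL. Its ratio was 1.12 (0.743 to 1.69) in number 1, 0.756 (0.473 to 1.201) in number 2 and 3.28 (3.03 to 3.56) in number 3, so only the number 3 interval excluded 1. The log2 fold change of Cxcl2 was 0.67 ± 0.45 (edgeR quasi-likelihood test with the block, adjusted p = 0.381).

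Cxcl1 counts were 1, 4 and 26 without treatment and 4.14, 1 and 182 with oxLDL, and in number 3 the level was 7.55-fold higher (4.99 to 11.9). Cxcl3 counts were 0, 3 and 50 without treatment and 1, 5 and 336.31 with oxLDL, and in number 3 the level was 7.24-fold higher (5.37 to 9.96). Neither reached the filter. With no filter, edgeR with the block gave log2 fold changes of 2.01 ± 0.88 for Cxcl1 (adjusted p = 0.273) and 2.47 ± 0.51 for Cxcl3 (adjusted p = 0.0544), and Cxcl3 passed in DESeq2 (2.20, adjusted p = 0.0298) and in limma-voom (2.48, adjusted p = 0.0322). Cxcl3 did not pass in limma on log2 CPM with 1 or 0.1 added (adjusted p = 0.396 and 0.255). Without number 3, edgeR with the block gave 0.90 ± 1.38 for Cxcl3 (adjusted p = 0.679).

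The coding sequences of Cxcl2 and Cxcl3 were 89.7% identical and their transcripts shared a run of 110 bases, which is below the read length of 150 bases. Expected counts were whole in all 6 libraries for Cxcl2 and in 5 for Cxcl3, and were not whole in 3 libraries each for Il1a and Il1rn. Cxcl1 was 75.7% identical to Cxcl2 and 72.7% to Cxcl3, with shared runs of 23 bases.

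Cxcl10 was lower with oxLDL in each number, by widely different amounts. Cxcl10 counts were 180, 291 and 2178 without treatment and 11, 1 and 798 with oxLDL, or 12.4, 20.9 and 147 CPM and 0.738, 0.0664 and 58.1 CPM. It was 16.8-fold lower in number 1 (9.16 to 34.2), and 2.53-fold lower in number 3 (2.33 to 2.75). In number 2 a single count remained, for a ratio of 315-fold lower with an interval of 56.1 to 12485. The number 3 oxLDL sample exceeded the untreated samples of numbers 1 and 2. The log2 fold change was −3.24 ± 0.997 and did not pass edgeR's quasi-likelihood test with the block (adjusted p = 0.120). It passed in DESeq2 with the block (−4.26 ± 1.43, adjusted p = 0.0215) and in edgeR without number 3 (−5.30 ± 0.71, adjusted p = 0.0113).

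**Figure D1:**
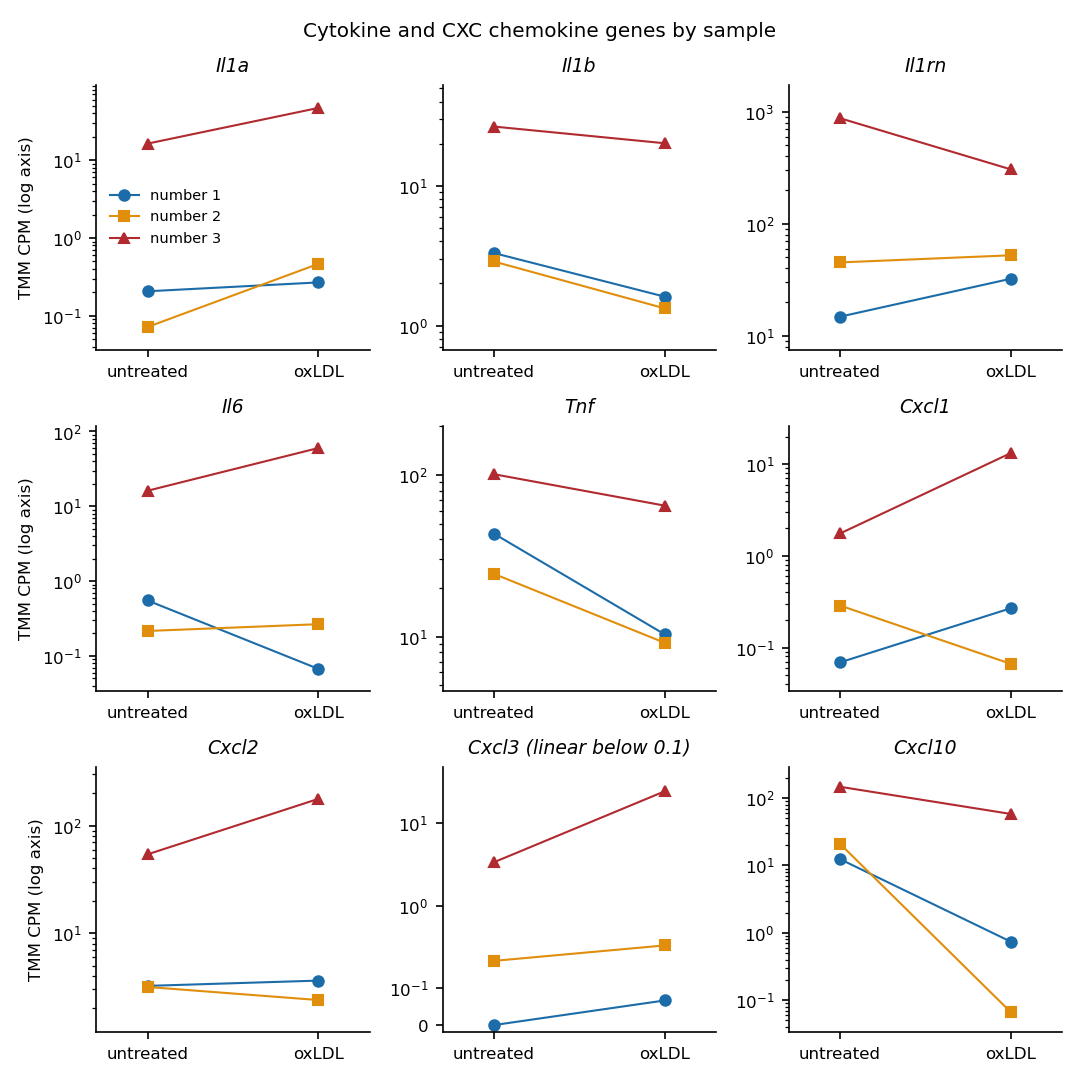
Level of each of the 9 genes in TMM-scaled CPM (log axis, linear below 0.1 for Cxcl3), with 1 point per library and a line joining the untreated and oxLDL libraries of a number. The number 3 points lie above those of numbers 1 and 2 in both groups for all 9 genes, and the lines of Tnf, Il1b and Cxcl10 slope downward in every number.

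Over the 9 genes, 5 entered the test and 0 passed in edgeR with the block, where 5.89% of the 11400 tested genes passed (1.91% higher and 3.98% lower). At an unadjusted p under 0.05 the same fit held 3 of the 5 (Il1b, Tnf and Cxcl10), beside 29.0% of all genes, and the fit without the block held 0 of 5, beside 14.7%. DESeq2 with the block called 0 higher and 2 lower (Tnf and Cxcl10), beside 6.17% and 10.1% of all genes. Without number 3, edgeR with the block also called these 2 genes lower, beside 15.8% of all genes. With no filter all 9 genes entered, and edgeR with the block called 0, beside 4.84% of 16358 genes. At an unadjusted p under 0.05 it held 5 of the 9, beside 21.9% of genes. DESeq2 with no filter called Il1a and Cxcl3 higher and Tnf and Cxcl10 lower, beside 4.23% and 7.08% of genes, and limma-voom with no filter called Il1a and Cxcl3 higher, beside 2.21%. The median log2 fold change was −0.78 over the 5 genes that reached the filter, beside 0.01 over all tested genes, and had the opposite sign, 0.68, over all 9 with no filter, beside 0.01. The 4 genes below the filter all had fold changes above 0. For 0 of the 9 genes did the oxLDL samples all lie on 1 side of the untreated samples, beside 10.8% of tested genes entirely above and 10.2% entirely below.

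Within single numbers the direction differed by gene. After adding 0.5 CPM to both sides, 1 of the 9 genes was more than 2-fold higher in number 1 (Il1rn), 0 in number 2 and 5 in number 3 (Il1a, Il6, Cxcl1, Cxcl2 and Cxcl3), beside 5.54%, 5.53% and 1.96% of the 16358 genes with a count. More than 2-fold lower were 2 genes in each number, beside 5.81%, 7.89% and 3.99%. These were Tnf and Cxcl10 in numbers 1 and 2, and Il1rn and Cxcl10 in number 3. Each number has 1 library per group, so these ratios have no replicate check.

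**Figure D2:**
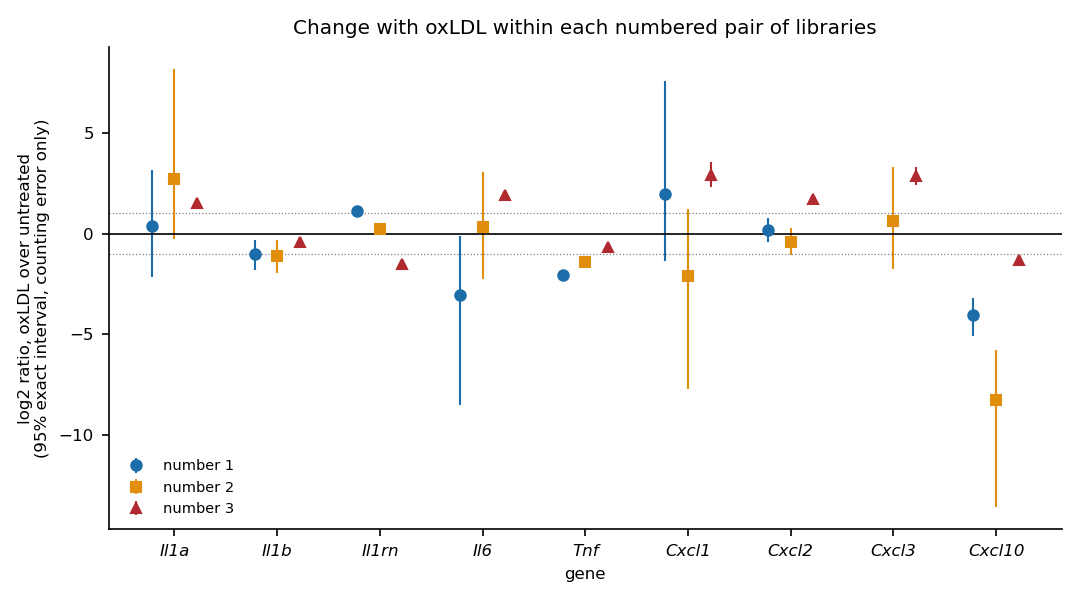
Log2 ratio of oxLDL to untreated within each number for the 9 genes, with exact 95% intervals that cover counting error only and dotted lines at 2-fold (number 1 of Cxcl3 is not drawn, since its counts were 0 and 1). In number 3 the ratios of Il1a, Il6, Cxcl1, Cxcl2 and Cxcl3 lie above the upper line, the wide intervals of numbers 1 and 2 rest on at most 8 counts a library for Il1a, Il6, Cxcl1 and Cxcl3, and Cxcl10 lies below the lower line in all 3 numbers.

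The number 3 libraries held the highest level of each of these genes in both groups. Each of the 9 genes was higher in sample 3 than in samples 1 and 2 in both groups, and by more than 2-fold on CPM + 0.5. Of the genes with a count, sample 3 was the higher in 39.0% of the untreated group, 39.5% of the oxLDL group and 24.5% of both, and it was more than 2-fold higher in 6.2% and 4.32%. On that scale, against the higher of samples 1 and 2, untreated sample 3 was 23.8-fold higher for Il1a, 15.8-fold for Il6, 19.2-fold for Il1rn and 2.32-fold for Tnf, the smallest of the 9. With oxLDL the values were 49.0-fold for Il1a, 79.2-fold for Il6, 5.80-fold for Il1rn, the smallest, and 6.00-fold for Tnf. With nothing added, the Il1a and Il6 values were 78.9-fold and 29.3-fold untreated and 101-fold and 226-fold with oxLDL, where the lower library held at most 8 counts. Il1rn apart, this step was larger with oxLDL than without, and the share of all genes with a larger step was not counted. The higher of oxLDL samples 1 and 2 was at 0.266 CPM for Il6, 0.268 for Cxcl1, 0.332 for Cxcl3, 0.465 for Il1a and 0.738 for Cxcl10. These levels are near the 0.5 CPM added, so the size of the step in these genes depends on it. The cause of the higher levels in number 3 was not tested.

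Among markers of other cells, the neutrophil markers S100a9, Ngp and S100a8 reached 13.6, 9.05 and 5.32 CPM, each in untreated sample 2. With oxLDL, number 2 was at 1.06, 0.199 and 0 CPM for these genes, and none of them passed (edgeR quasi-likelihood adjusted p = 0.126, 0.359 and 0.375). Mpo reached at most 1.80 and Elane 0.287 CPM. The summed neutrophil list, 8 of 9 markers measured, was 187 to 259 CPM in untreated and 74.1 to 105 in oxLDL samples. Nearly all of it was Csf3r, the G-CSF receptor, which fell (log2 fold change −1.16 ± 0.16, edgeR quasi-likelihood adjusted p = 0.0362). The dendritic cell list summed to 4.38 to 8.65 and 3.56 to 15.5 CPM, with 2 of its 6 markers tested and 0 passed. Ccr7 was higher in number 3, at 0.964, 0.647 and 6.96 CPM untreated and 1.54, 2.39 and 12.1 CPM with oxLDL. The other tested marker, Xcr1, was lowest in number 3 untreated, at 3.10, 2.52 and 0.676 CPM, and highest in number 3 with oxLDL, at 0.939, 1.13 and 1.53 CPM. Fibroblast markers summed to at most 0.405 CPM and T, NK and B cell markers to at most 0.510 CPM. The mast cell and basophil list summed to 3.03 to 22.6 CPM untreated and 23.4 to 36.7 with oxLDL, nearly all Kit. With oxLDL, Kit was 8.62-, 3.46- and 1.68-fold the untreated level in numbers 1, 2 and 3. It was the 1 marker tested, and it passed in DESeq2 with the block but not in edgeR with the block. The endothelial list summed to 22.4 to 70.3 and 20.5 to 32.7, nearly all Kdr, and its 1 tested marker passed in neither. The part of these other cells in the number 3 levels was not tested.

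The genes with the pattern most like each of the 7 members with a mean of at least 5 CPM were also compared. By Pearson's r of log2(CPM + 1) over the 6 libraries, which share 3 numbers and fall into 2 sets, the closest gene was Ccl5 for Il1b (0.999), a chemokine at 13.3, 9.41 and 1502 CPM untreated and 3.42, 1.26 and 956 CPM with oxLDL. Zhx2 was closest to Cxcl2 (0.999) and among the 3 closest to Il1a and Il6. Il18bp, which encodes a secreted inhibitor of IL-18, was closest to Cxcl10 (0.995), at 30.1, 39.5 and 89.2 CPM untreated and 9.73, 7.70 and 49.2 CPM with oxLDL. The closest to the others were Lrrc75a for Il1a (0.997), Arhgap10 for Il1rn (0.998), Gys1 for Il6 (0.998) and Fbxo38 for Tnf (0.994). The libraries of number 3 set apart both Ccl5 and Il18bp, as they do the 9 genes.

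Of 131 other genes of these pathways, in 8 lists by role, 103 were tested and 10 passed edgeR's quasi-likelihood test with the block, 3 higher and 7 lower, or 9.71% beside the 5.89% of all genes. In the fit without the block 0 of the 103 passed. With the block, 34 of the 103 passed in DESeq2, beside 1853 of all 11400 genes (16.3%), and 17 of the 103 in limma-voom, beside 960 of 11400 (8.42%). The median log2 fold change was below 0 in all 8 lists, from −0.12 for regulators of mRNA decay to −0.52 for NF-κB and its partner factors, beside 0.01 over all genes. The counts per list below stand beside these shares of all genes. In edgeR with the block 1.91% were called higher and 3.98% lower. In DESeq2 with the block 6.17% were called higher and 10.1% lower.

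**Figure D3:**
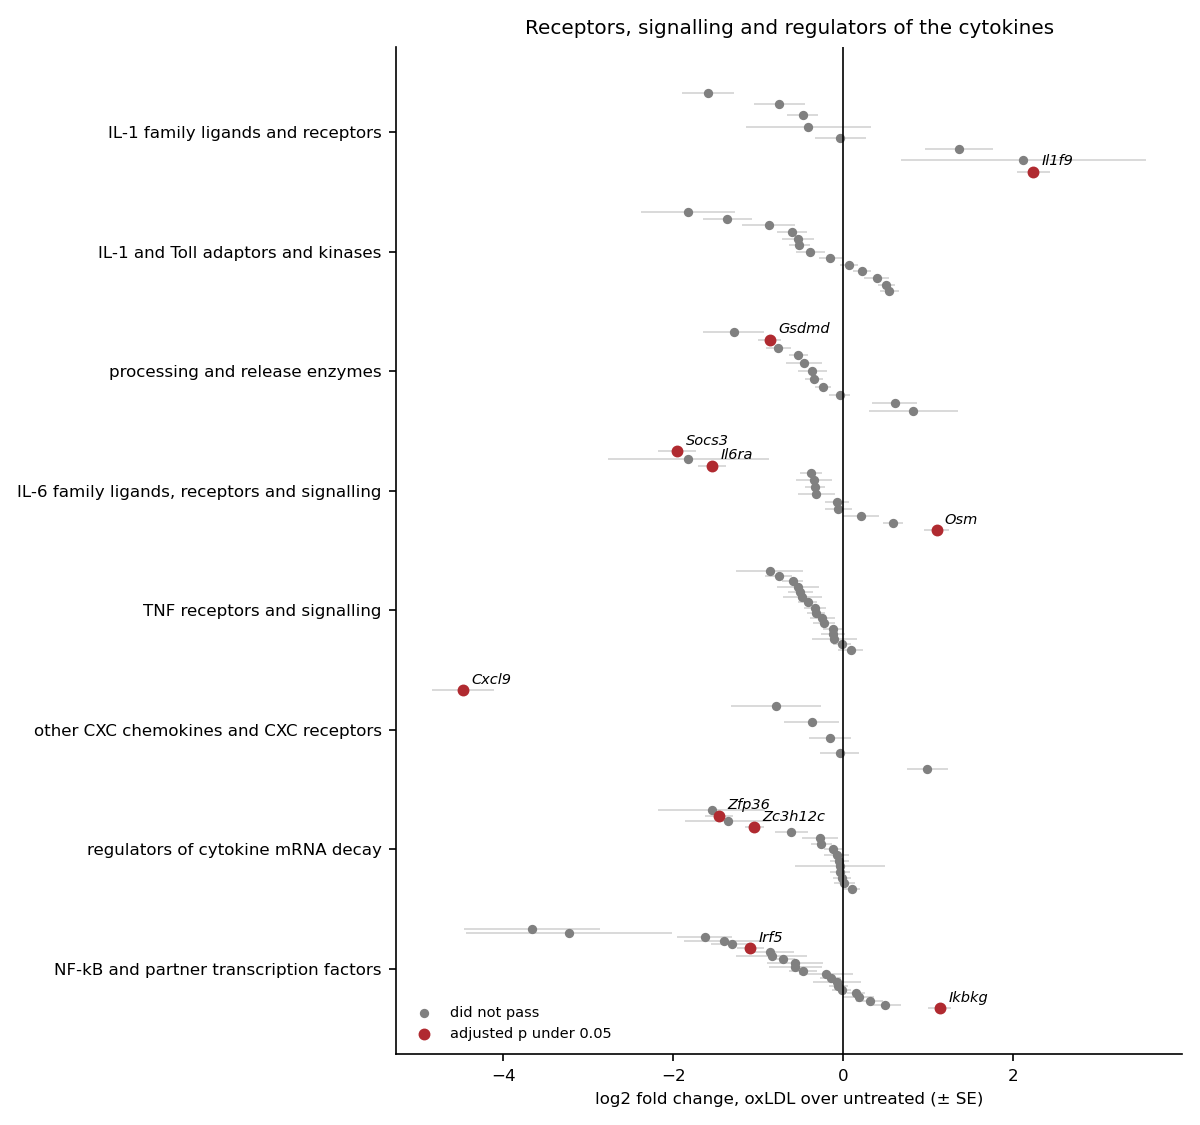
Log2 fold change with oxLDL (± SE, edgeR with the block, n = 3 per group) of the 103 tested genes of the 8 pathway lists, with 1 point per gene ordered within its list. The 10 named red points passed at an adjusted p under 0.05, 7 to the left of 0 and 3 to the right.

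Among IL-1 family genes, 8 of 16 were tested and 1 passed (DESeq2 with the block called 1 higher and 1 lower). Il1f9, the older symbol of Il36g and the gene of the agonist IL-36γ, rose, with CPM of 1.31, 1.58 and 5.27 untreated and 6.51, 8.70 and 21.3 with oxLDL. All oxLDL samples were above all untreated samples (log2 fold change 2.23 ± 0.20, edgeR quasi-likelihood adjusted p = 0.0286), although counts were not whole in 4 of the 6 samples. Il1r1, the signalling receptor chain, was at 2.48, 1.37 and 5.14 CPM untreated and 97.9, 4.71 and 2.48 CPM with oxLDL, so that 1 oxLDL library stood far above the other 5 (2.12 ± 1.44, edgeR quasi-likelihood adjusted p = 0.386). Its partner chain Il1rap had a log2 fold change of −0.48 ± 0.18 (adjusted p = 0.174), and the decoy receptor Il1r2 reached at most 0.27 CPM. Of the 13 adaptors and kinases below these receptors, all were tested and 0 passed in edgeR (DESeq2 with the block called 2 higher and 5 lower).

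Among the processing and release enzymes, 1 of 11 tested genes passed (DESeq2 with the block called 4 lower). Gsdmd, which encodes the pore protein through which IL-1β leaves the cell, fell from 95.5, 103 and 76.4 CPM to 49.6, 48.2 and 51.9 CPM, with no overlap between the groups (−0.87 ± 0.14, edgeR quasi-likelihood adjusted p = 0.0422).

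In the IL-6 list, 12 of 16 genes were tested, 1 rose and 2 fell, with the same counts in DESeq2 with the block. Il6ra, the IL-6 binding chain, fell in every number, from 186, 155 and 27.6 CPM to 81.5, 43.3 and 8.96 CPM (−1.55 ± 0.17, edgeR quasi-likelihood adjusted p = 0.0286). Socs3, the feedback inhibitor of gp130 signalling, fell from 24.0, 11.3 and 129.7 CPM to 4.03, 3.25 and 43.8 CPM (−1.95 ± 0.22, adjusted p = 0.0288). Osm, the gene of the gp130 cytokine oncostatin M, rose from 3.24, 5.17 and 14.9 CPM to 7.78, 11.2 and 29.0 CPM (1.10 ± 0.15, adjusted p = 0.0362). The level in number 3 was the lowest of its group for Il6ra and the highest for Socs3 and Osm. Il6st, which encodes gp130, did not pass (0.21 ± 0.21, adjusted p = 0.556).

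Of the TNF receptors and signalling genes, 16 of 18 were tested and 0 passed in edgeR (DESeq2 with the block called 2 lower). Tnfrsf1b, the gene of TNFR2, was at 792, 849 and 3421 CPM untreated and 766, 567 and 1745 CPM with oxLDL (−0.54 ± 0.25, adjusted p = 0.233), and Tnfrsf1a, the gene of TNFR1, had a log2 fold change of −0.23 ± 0.13 (adjusted p = 0.302).

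Among the other CXC chemokines and receptors, 6 of 19 genes were tested and 1 passed. Cxcl9, like Cxcl10 a ligand of CXCR3 induced by interferon, fell from 1.17, 0.431 and 72.0 CPM to 0.134, 0 and 2.91 CPM (−4.47 ± 0.36, edgeR quasi-likelihood adjusted p = 0.0286). Its counts in the oxLDL samples were 2, 0 and 40. The receptor genes did not pass in edgeR. Cxcr4 was at 49.2, 80.3 and 73.4 CPM untreated and 145, 155 and 101 CPM with oxLDL, with no overlap between the groups (0.99 ± 0.24, adjusted p = 0.0806), and it passed in DESeq2 with the block (0.98 ± 0.28, adjusted p = 0.00417). Cxcr2 was 1.89 to 3.23 CPM in all 6 libraries (−0.16 ± 0.25, adjusted p = 0.714), and Cxcr3 was at 0.203 and 0.364 CPM in number 3 and 3.69 to 6.11 CPM elsewhere (−0.37 ± 0.32, adjusted p = 0.490).

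Of the 15 regulators of cytokine mRNA decay, all were tested and 2 fell, while DESeq2 with the block called 5 lower. Zfp36, which encodes tristetraprolin, a protein that binds AU-rich stretches of messages such as that of Tnf and hastens their decay, fell from 183, 169 and 120.3 CPM to 64.4, 49.3 and 56.0 CPM with no overlap between the groups (−1.46 ± 0.16, edgeR quasi-likelihood adjusted p = 0.0286). Zc3h12c, a gene of the Regnase family of RNases, fell from 89.0, 59.7 and 203 CPM to 41.4, 26.6 and 111 CPM (−1.05 ± 0.11, adjusted p = 0.0286). In the 3′ UTR of the longest coding transcript, the AU-rich spelling TATTTAT, searched after the data had been seen, occurred 8 times in Tnf, 7 in Cxcl2, 6 in Cxcl1, 3 in Il1a, 3 in Il1b, 2 in Cxcl3 and once in Il6, and 0 times in Il1rn and Cxcl10. Thus 5 of the 9 genes held at least 3, beside 3.52% of 19640 genes. The decay of these messages was not measured.

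Of the 22 NF-κB and partner genes, all were tested, 1 rose and 1 fell. DESeq2 with the block called 1 higher and 8 lower, beside 6.17% and 10.1% of all genes. Limma-voom with the block called 6 in all, beside 8.42%. Ikbkg, the regulatory subunit of the IκB kinase also called NEMO, rose from 47.6, 67.1 and 109 CPM to 114, 123 and 264 CPM with no overlap between the groups (1.14 ± 0.14, edgeR quasi-likelihood adjusted p = 0.0302). Irf5, an interferon regulatory factor that acts on inflammatory cytokine genes, fell from 223, 227 and 106 CPM to 113, 122 and 39.7 CPM (−1.09 ± 0.16, adjusted p = 0.0369). Every one of these 10 pathway calls was lost without the block, where the smallest adjusted p of any gene was 0.0667, and 0 genes passed with number 1 or number 2 left out.

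**Figure D4:**
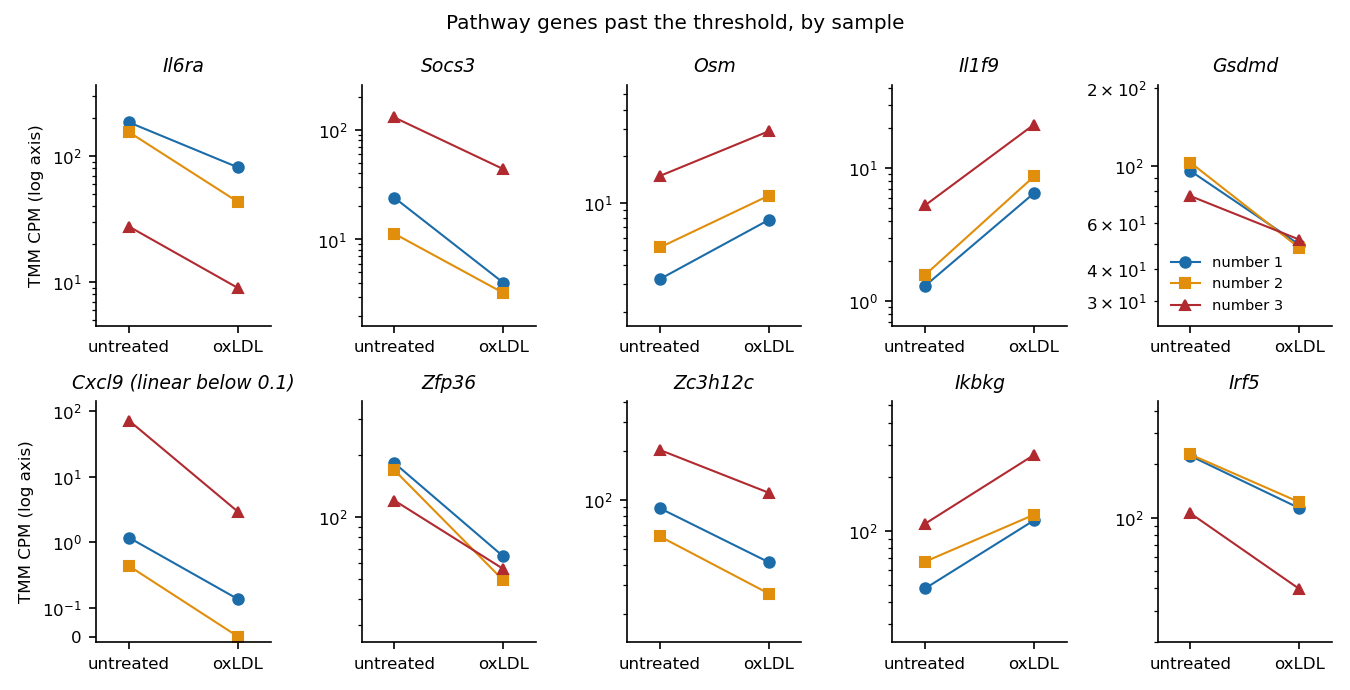
Level of the 10 pathway genes that passed the test, in TMM-scaled CPM (log axis, linear below 0.1 for Cxcl9), with 1 point per library and a line joining the libraries of a number. In each panel all 3 lines run in the same direction. Il1f9, Gsdmd, Zfp36 and Ikbkg have no overlap between the untreated and oxLDL samples.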

How the data were processed

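RNA-seq was compared between 3 untreated and 3 oxLDL libraries of mouse BMDM, grouped and numbered by title. The authors deposited expected counts estimated by RSEM, of which 10.4% to 11.1% per library were not whole (tolerance 0.005), and they were rounded. The deposited normalised signal was CPM of a TMM-scaled library size, per the file's name, and 100% of its values came out as whole reads. The submitters' processing notes list Bowtie2 2.1.0, RSEM 1.2.15, edgeR and the human build hg19, although symbols are of mouse. Whether counting used strand is not stated.

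The main test was edgeR's quasi-likelihood test (edgeR 4.0.16, R 4.3.3) with TMM factors, the number as a block, filterByExpr (minimum count 10, minimum total 15) and Benjamini-Hochberg adjustment over 11400 genes, with a threshold of 0.05. It was also run on simulated counts in which each changed gene had the same change in every number. That run does not show how the test behaves where the numbers differ. The members' rule matches samples by number, and same-numbered deviations from the group means correlated at 0.66, 0.45 and 0.70, all over 0.1. Between unlike numbers, untreated 2 and oxLDL 1 correlated at 0.63, above the 0.45 of number 2 itself, untreated 1 and oxLDL 2 at 0.20, and pairs with 1 number 3 library at −0.76 to −0.37. Alternatives were DESeq2 1.42.0, limma 3.58.1, no block, no filter and each number or library left out. Genes below the filter were fitted without it. Named pathway genes were those past the threshold, at most 4 a list by size of change, and the receptors. The members and lists were chosen with earlier results of these data known. Ratios within a number have exact 95% intervals, and a fold is not given where both counts are at or under 3. 3′ UTR and coding sequences came from GENCODE M21, promoters from RefSeq GRCm38.p6.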

Additional observations from a re-analysis of the deposited data

How the results depend on the processing

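The block decided how many genes passed. With the number as a replicate block, 672 genes passed in edgeR, and with no block 0 did (1674 at an unadjusted p under 0.05), with a smallest adjusted p of 0.0667. DESeq2 with the block gave 1853. Leaving out a number gave 0 to 3446 (0 without number 1 or number 2, 3446 without number 3), and leaving out 1 library with no block gave 0 to 737 (737 without untreated sample 3, 31 without oxLDL sample 3). Of the 9 genes, the count lower was 0 in edgeR and 2 in DESeq2, beside 3.98% and 10.1% of all genes. It was 0 to 2 with a number left out, where the 2 came without number 3, beside 15.8%. Of the 103 tested pathway genes, 10 passed with the block (5.89% of all genes), 0 without (0%), 34 in DESeq2 (16.3%) and 17 in limma-voom (8.42%). Each fit with samples left out had its own filter, so its pathway genes need not be the same 103. Pathway genes passed in numbers from 0 to 57 with a number left out, and from 0 to 6 with 1 library left out and no block. The 57 came without number 3, where 3446 of 11543 genes passed, and the 6 without untreated sample 3, where 737 genes passed.

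Il1rn reversed in limma-voom (0.10) and without number 3 (0.65), from −0.68 to 0.65 with a number left out and −2.90 to 2.12 with 1 library left out and no block. With a number left out and the block, the log2 fold change ran from 1.34 to 1.63 for Il1a, −1.06 to −0.66 for Il1b, −1.13 to 1.69 for Il6, −1.74 to −1.03 for Tnf, −0.0605 to 2.78 for Cxcl1, −0.10 to 1.06 for Cxcl2, 0.90 to 2.86 for Cxcl3 and −5.30 to −2.33 for Cxcl10. With 1 library left out and no block it ran from −3.90 to 6.73 for Il1a, −2.91 to 1.32 for Il1b, −5.02 to 5.67 for Il6, −2.54 to −0.27 for Tnf, −2.04 to 4.61 for Cxcl1, −2.77 to 4.26 for Cxcl2, −2.55 to 6.17 for Cxcl3 and −7.22 to 0.24 for Cxcl10. The log2 change of Il1rn per Il1b ran from 0.10 to 1.74 with a number left out. The cause of these shifts was not tested. In numbers 1 and 2, Il1a, Il6, Cxcl1 and Cxcl3 held at most 8 counts a library. Depth was similar in number 3, at 14814244 expected counts untreated and 13546572 with oxLDL.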

Other observations

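The direction of change in number 3 differed from that in numbers 1 and 2 for 10 of the 22 genes of NF-κB and its partner factors. Of these, 8 were lower with oxLDL in numbers 1 and 2 and higher in number 3, beside 12.6% of all tested genes. The other 2, Nfkbib and Atf3, were the reverse, beside 12.9%. Direction here and below is the sign of the ratio alone, whatever its size. The intervals for counting error excluded 1 in all 3 numbers for Nfkb1, Nfkb2, Relb, Irf1 and Atf3. For Rela, Nfkbiz, Irf3 and Nfkbib the number 3 interval included 1, and for Irf3 the number 2 interval (0.815 to 1.060) also included 1. For Ikbkb the number 1 interval did, so in these genes the sign was within counting error there. A further 8 of the NF-κB list were lower in all 3 numbers and 3 were higher in all 3. Of the 103 tested pathway genes, 47 (45.6%) were lower with oxLDL in all 3 numbers, beside 26.5% of all tested genes. Higher in all 3 were 12 (11.7%), beside 26.6%. Another 22 (21.4%) were lower in numbers 1 and 2 and higher in number 3, beside 12.6%, and 5 (4.85%) did the reverse, beside 12.9%. These 22 pathway genes included Nfkb2, Relb, Tnfaip3 and Birc3, named after their values were seen. Nfkb2, a subunit gene of the alternative NF-κB pathway, was at 88.1, 78.8 and 181 CPM untreated and 43.7, 37.2 and 237 CPM with oxLDL. Relb, its partner, was at 27.8, 27.7 and 53.0 CPM and 18.2, 16.8 and 85.7 CPM. Tnfaip3, the feedback inhibitor A20, was at 53.1, 47.1 and 211 CPM and 28.7, 28.4 and 234 CPM. Neither the difference between the numbers nor its cause was tested, since each number has 1 library per group.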
